A study of Mus musculus with 8 samples.

Results

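The collagen chain genes, those whose symbol is Col, a type number, the letter a and a chain number, were taken from a comparison of adipocyte precursors between wounded and nonwounded mouse skin. They made up 54 of the 34535 transcript isoforms in the authors' deposited table and 44 of the 24356 gene symbols listed there. Adipocyte precursors, mesenchymal cells able to become fat cells, were isolated by flow sorting from the dermis of male C57/Bl6 mice aged 7 weeks. The nonwounded group held 6 samples of dorsal skin and the wound bed group 2 samples taken at day 5, and the labels give no other difference between the groups and do not name the surface markers of the sort. The table gives 1 FPKM value (fragments per kilobase of transcript, scaled to the fragments mapped) per isoform and group, so no value per sample, no SD and no depth per sample can be given. Nothing states that separate animals gave the samples. The authors' p-values thus apply to these samples only and cannot be taken to measure a spread between animals.

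Collagens are secreted proteins built from 3 chains that wind into a triple helix. Fibrillar chains assemble into the cable-like fibrils that give dermis its strength, and fibril-associated chains sit on their surface. Other chains build the sheet of the basement membrane, the beaded filaments around cells, or short-chain networks. Mesenchymal cells of the dermis are the main source of its fibrillar collagen, and a healing wound is filled first with a provisional matrix and then with new collagen.

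All FPKM values below are those of the authors' deposited table, with the wound bed value given first where a pair is written as 1 value against another, and adjusted p-values were computed here from the p-values in that table. Of the 54 isoforms, 30 were tested by the authors' Cuffdiff comparison, 21 were marked as having too little signal to test, and 3 (Col1a1, Col1a2 and Col3a1) were marked as holding too many fragments to process. An isoform is called higher or lower here when its deposited p-value, adjusted by the Benjamini-Hochberg method over all 17775 tested isoforms, was under 0.05. In the wound bed 13 collagen isoforms rose and 1 fell, where 5.66% and 7.25% of all tested isoforms did, and 16 tested collagen isoforms were not called. By gene, using for each the tested isoform with the most FPKM over both groups, 27 were tested, 11 were called higher and 1 lower. The same shares among all 13718 tested genes were 7.01% and 8.67%. The smallest p-value in the table, 5e-05 (adjusted 0.000882), was shared by 1008 isoforms in the Cuffdiff output of the authors, 9 of them collagen isoforms.

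No collagen gene was tested with less than 0.711 FPKM in both groups. The 8 tested genes below this level in nonwounded skin thus had their larger value in the wound bed by the choice of genes tested. The 5 calls among them (Col11a1, Col27a1, Col6a5, Col8a1 and Col7a1) are not read as support. Col20a1 was the 1 gene below this level in the wound bed. In both groups 17 collagen genes reached 1 FPKM. Of these, 6 rose and 1 fell, where 7.95% and 7.06% of the 10630 genes of the table at that level did. The median log2 ratio of wound bed to nonwounded FPKM was 0.70, where for all 10630 it was -0.11.

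**Figure D1:**
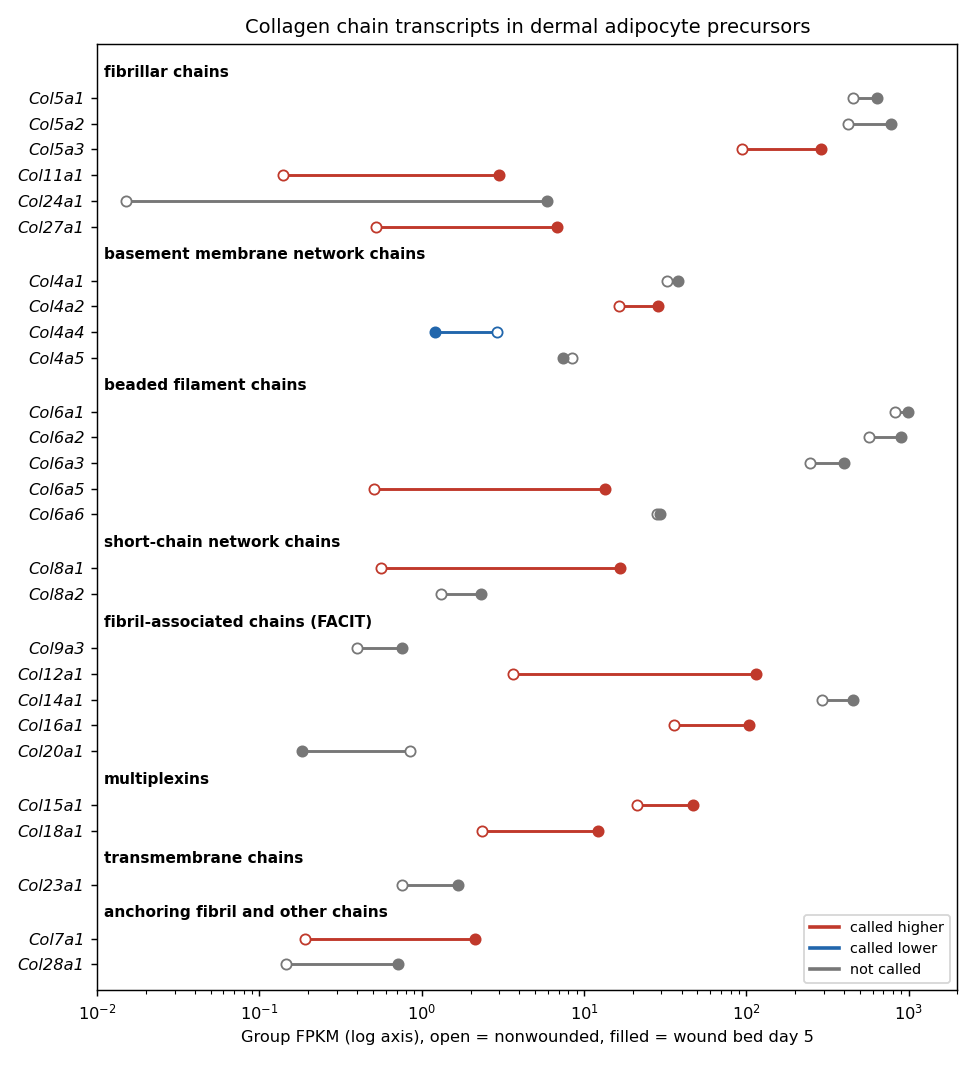
Group FPKM (horizontal log axis) of the 27 tested collagen genes, grouped by the structure their chains build; open circles are nonwounded skin, filled circles the wound bed at day 5, and the line between them is red where called higher, blue where called lower and grey where not called. Col12a1 runs from 3.65 to 114, while Col6a1, at 828 and 990, hardly moves on this scale.

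The starts of the genes are shown first, for the chains with the largest called rises that have an entry in the RefSeq promoter table and for the pairs of starts that the results below set side by side. Of the 44 genes, 35 had an entry, in 38 windows of 300 bases that reach from 250 bases before to 50 after a transcript start (RefSeq, GRCm38.p6). Capitals mark matches on either strand to GGGCGG (the GC box), CCAAT (the CCAAT box), TATAAA (the TATA box) or TGANTCA (the AP-1 site). The first set holds Col6a5, Col8a1 and Col11a1, which rose most among the called genes with an entry. All were below 0.711 FPKM in nonwounded skin, so their calls are not read as support.
Col6a5, chr9:105960594-105960893, minus strand: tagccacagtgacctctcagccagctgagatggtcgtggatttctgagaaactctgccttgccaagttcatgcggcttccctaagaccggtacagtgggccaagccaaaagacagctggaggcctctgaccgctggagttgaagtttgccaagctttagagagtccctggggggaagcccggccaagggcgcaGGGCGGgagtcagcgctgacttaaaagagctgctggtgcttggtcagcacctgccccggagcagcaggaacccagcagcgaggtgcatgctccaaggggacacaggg
Col8a1, chr16:57754688-57754987, minus strand: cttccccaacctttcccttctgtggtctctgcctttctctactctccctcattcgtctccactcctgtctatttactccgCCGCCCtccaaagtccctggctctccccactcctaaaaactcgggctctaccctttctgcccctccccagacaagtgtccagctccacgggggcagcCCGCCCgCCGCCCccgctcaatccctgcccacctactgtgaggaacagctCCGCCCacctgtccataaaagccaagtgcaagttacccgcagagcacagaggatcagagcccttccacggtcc
Col11a1, chr3:114030290-114030589, plus strand: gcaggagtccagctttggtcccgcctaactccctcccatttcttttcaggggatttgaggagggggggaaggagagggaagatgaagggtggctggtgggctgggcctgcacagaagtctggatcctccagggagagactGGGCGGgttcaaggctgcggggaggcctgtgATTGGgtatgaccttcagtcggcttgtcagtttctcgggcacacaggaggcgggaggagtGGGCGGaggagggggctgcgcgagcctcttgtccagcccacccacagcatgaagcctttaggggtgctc

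The next set holds both starts of Col18a1, whose isoforms were called with different fold changes, and the starts of Col4a1 and Col4a2, which lie head to head on opposite strands, their windows overlapping.
Col18a1 upstream start, chr10:77166481-77166780, minus strand: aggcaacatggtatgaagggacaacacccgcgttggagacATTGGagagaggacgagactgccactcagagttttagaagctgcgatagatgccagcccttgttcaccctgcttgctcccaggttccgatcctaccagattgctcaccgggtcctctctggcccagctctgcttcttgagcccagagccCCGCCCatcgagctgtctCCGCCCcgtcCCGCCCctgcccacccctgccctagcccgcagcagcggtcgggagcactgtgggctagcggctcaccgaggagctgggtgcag
Col18a1 downstream start, chr10:77113656-77113955, minus strand: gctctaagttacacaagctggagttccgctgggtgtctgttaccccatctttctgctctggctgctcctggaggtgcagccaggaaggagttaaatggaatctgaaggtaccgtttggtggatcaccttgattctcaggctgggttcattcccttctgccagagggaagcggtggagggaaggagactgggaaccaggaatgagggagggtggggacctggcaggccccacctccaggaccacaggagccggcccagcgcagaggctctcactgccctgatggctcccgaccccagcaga
Col4a1, chr8:11312777-11313076, minus strand: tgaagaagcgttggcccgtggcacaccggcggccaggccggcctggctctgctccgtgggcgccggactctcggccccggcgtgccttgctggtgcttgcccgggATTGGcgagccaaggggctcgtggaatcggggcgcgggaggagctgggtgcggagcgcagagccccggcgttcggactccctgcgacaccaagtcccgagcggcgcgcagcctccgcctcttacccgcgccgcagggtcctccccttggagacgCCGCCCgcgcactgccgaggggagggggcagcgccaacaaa
Col4a2, chr8:11312555-11312854, plus strand: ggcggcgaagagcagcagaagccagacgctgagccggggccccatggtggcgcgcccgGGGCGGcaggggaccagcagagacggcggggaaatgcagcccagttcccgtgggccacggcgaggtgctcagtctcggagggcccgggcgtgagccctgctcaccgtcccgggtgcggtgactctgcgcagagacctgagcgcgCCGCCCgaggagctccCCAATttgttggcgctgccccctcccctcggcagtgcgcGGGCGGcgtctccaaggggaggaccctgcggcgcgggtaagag

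The GC box was found in 23 of the 38 collagen windows (60.5%), and in 35.6% of all 32817 promoter windows of the table. Among the 11 windows of genes called higher it was found in 9. These 9 include the windows of Col11a1, Col27a1, Col6a5, Col8a1 and Col7a1, whose calls are not read as support. No link between the motif and the rises is drawn from this count. The CCAAT box was found in 13 collagen windows (34.2%, against 37.4% of all) and the TATA box in 5 (13.2%, against 13.6%). The AP-1 site was found in the window of Col6a1 only (2.63%, against 7.81%). The upstream window of Col18a1 holds 3 GC boxes and a CCAAT box, and its downstream window holds no match to any of the 4 motifs. These are counts of letters and do not show that a factor binds.

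Among the fibrillar chains 3 of 6 tested genes rose and 0 fell. Counts by structure are to be read beside the 7.01% of all tested genes called higher and the 8.67% called lower. Of the 3, Col11a1 and Col27a1 were below 0.711 FPKM in nonwounded skin, and their calls are not read as support. Col5a3 codes for a chain of type V collagen, which is built into the core of type I fibrils and limits their width. It rose 3.07-fold, to 289 FPKM in the wound bed from 94.1 in nonwounded skin. Its partner chains were more abundant and were not called. Col5a1 stood at 637 against 456 (log2 fold change 0.48) and Col5a2 at 783 against 425 (0.88). By FPKM, nonwounded cells held 4.85 transcripts of Col5a1 for each of Col5a3, and wound bed cells 2.20. Adjusted from the p-values of the authors, p was 0.000882 for Col5a3, 0.569 for Col5a1 and 0.280 for Col5a2. The difference between their fold changes was not tested.

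The minor fibrillar genes started from low levels. Col11a1, which codes for a chain of the type XI collagen that shares fibrils with type V, stood at 2.98 FPKM against 0.139 and was called (log2 fold change 4.42). Col27a1, a gene of a fibrillar collagen with a short triple helix best known from cartilage, stood at 6.84 against 0.526 and was called (3.70). Col24a1 had the largest ratio of the family, 5.95 against 0.0151, but was not called (8.62). With a pseudocount of 1 FPKM in both groups its log2 fold change was 2.78, that of Col11a1 was 1.80 and that of Col27a1 was 2.36. Adjusted p-values from those of the authors were 0.0328 for Col11a1, 0.000882 for Col27a1 and 0.195 for Col24a1. The cartilage chains Col2a1 and Col11a2 were not tested, at 0.0218 against 0.0603 and 0.214 against 0.105, and none of the 21 collagen isoforms with too little signal to test was above 0.687 FPKM. Cartilage markers outside the family summed to 2.12 FPKM against 1.08 over 6 genes, with 0 of 2 tested called. Most of the wound bed sum was Sox9, at 1.82 against 0.138, and most of the nonwounded sum was Comp, at 0.106 against 0.882. Acan, at 0.0847 against 0.00985, and Matn3, at 0.109 against 0.00411, were low in both groups, Matn1 was at 0 in both and Hapln1 at 0 in the wound bed. The part of such cells in the values of Col11a1 and Col27a1 was not tested.

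Col1a1, Col1a2 and Col3a1, the genes of the main collagens of dermis, have no usable value. The table lists Col1a2 and Col3a1 at 0 in both groups and Col1a1 at 0 in nonwounded skin and 12506 in the wound bed, all under the status for too many fragments. These entries mark a comparison that was not completed and not an absence of transcripts, so no fold change is given, and every sum over collagen genes below leaves these 3 out.

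Among the fibril-associated chains, 2 of 5 tested genes rose and 0 fell. Col12a1 codes for a long chain with a small collagen stretch that links neighbouring fibrils. It rose 31.2-fold, to 114 FPKM from 3.65, which took it from percentile 45.9 to percentile 96.5 of all tested isoforms. Its rank among the 27 tested collagen genes went from 14 to 8. Col14a1, which codes for the related fibril-associated type XIV chain, stood at 453 against 292 and was not called (log2 fold change 0.64). By FPKM, nonwounded cells thus held 80.0 Col14a1 transcripts for each of Col12a1, and wound bed cells 3.98. The difference between their rises was not tested.

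Col16a1, a fibril-associated gene whose chain also binds integrins, rose 2.88-fold, from 36.0 to 104 FPKM. Col9a3, a chain of the cartilage type IX collagen, stood at 0.751 against 0.398 without a call, and its partners Col9a1 and Col9a2 were not tested. Col20a1 was the lowest tested fibril-associated gene in the wound bed, at 0.184 against 0.850, without a call (log2 fold change -2.21). Adjusted from the p-values of the authors, p was 0.000882 for Col12a1 and Col16a1, 0.395 for Col14a1, 0.534 for Col9a3 and 0.185 for Col20a1. Col19a1 and Col22a1 were not tested, and Col19a1 was listed at 0 in the wound bed.

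Among the beaded filament chains of type VI collagen, 1 of 5 tested genes rose and 0 fell. The 1 was Col6a5, which was below 0.711 FPKM in nonwounded skin, so its call is not read as support. Col6a1 and Col6a2, which code for its constant chains, held ranks 1 and 2 among the 27 genes in both groups. Col6a1 stood at 990 FPKM against 828 (log2 fold change 0.26) and Col6a2 at 903 against 568 (0.67), and the main isoform of Col6a3 at 401 against 247 (0.70). All 3 had their higher value in the wound bed and none was called. Of the alternative chains that can take the place of Col6a3, Col6a5 rose 26.2-fold, from 0.510 to 13.4, and Col6a6 stood at 29.3 against 28.3 without a call (0.05). By FPKM, nonwounded cells thus held 55.6 transcripts of Col6a6 for each of Col6a5, and wound bed cells 2.19. With a pseudocount of 1 FPKM the log2 fold change of Col6a5 was 3.25 in place of 4.71. Adjusted from the p-values of the authors, p was 0.766 for Col6a1, 0.318 for Col6a2, 0.341 for Col6a3, 0.000882 for Col6a5 and 0.909 for Col6a6. Col6a4, the other alternative chain of this cluster, was not tested, at 0.391 against 0.203. The 3 genes lie next to each other on chromosome 9, with Col6a6 from 105689417 to 105828085, Col6a5 from 105856070 to 105960643 and Col6a4 from 105990318 to 106096691 in the positions of the table.

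Col6a3 differed between its isoforms. The shorter isoform, NM_001243009, is the main one described above. The longer isoform, NM_001243008, rose by 4.34 on the log2 scale, to 75.0 FPKM from 3.70, with an adjusted p of 0.000882 from that of the authors. Its share of the FPKM of the gene was 1.48% in nonwounded skin and 15.7% in the wound bed, while the sum of both isoforms stood at 476 against 251. In the GENCODE M21 models on GRCm38, the longer isoform has 3 internal exons that the shorter lacks, of 618, 603 and 600 bases, all coding. They are exon 3 (chr1:90827860-90828477), exon 4 (chr1:90821802-90822404) and exon 6 (chr1:90813215-90813814), on the minus strand. The models also end in different last exons, of 11 bases in the longer isoform and 746 in the shorter, with 11 coding bases in each. The last exon of the longer model (chr1:90765923-90765933) lies outside the locus listed for both isoforms, which begins at 90766860. It was thus not part of the isoform values. The amino end of this chain is known to be a row of von Willebrand factor A-like domains, and alternative splicing of domains near this end is known for type VI collagen. Of the exon junctions that tell the isoforms apart, 6 around these internal exons are shown with 30 bases on each side, from the GENCODE transcripts, with capitals for bases of exons that only the longer isoform holds.
NM_001243008, exon 2 to exon 3: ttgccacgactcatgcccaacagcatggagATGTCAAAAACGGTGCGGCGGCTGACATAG
NM_001243008, exon 4 to exon 5: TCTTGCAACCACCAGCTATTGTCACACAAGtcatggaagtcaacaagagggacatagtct
NM_001243009, exon 2 to exon 3: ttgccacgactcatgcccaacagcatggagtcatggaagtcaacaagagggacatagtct
NM_001243008, exon 5 to exon 6: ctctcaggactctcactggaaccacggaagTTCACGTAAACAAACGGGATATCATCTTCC
NM_001243008, exon 6 to exon 7: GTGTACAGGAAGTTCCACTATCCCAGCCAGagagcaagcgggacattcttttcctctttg
NM_001243009, exon 3 to exon 4: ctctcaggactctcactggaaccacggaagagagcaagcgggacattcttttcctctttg
Reads in the exons that both isoforms share can come from either, so the split between them is an estimate, and the difference between their fold changes was not tested.

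**Figure D2:**
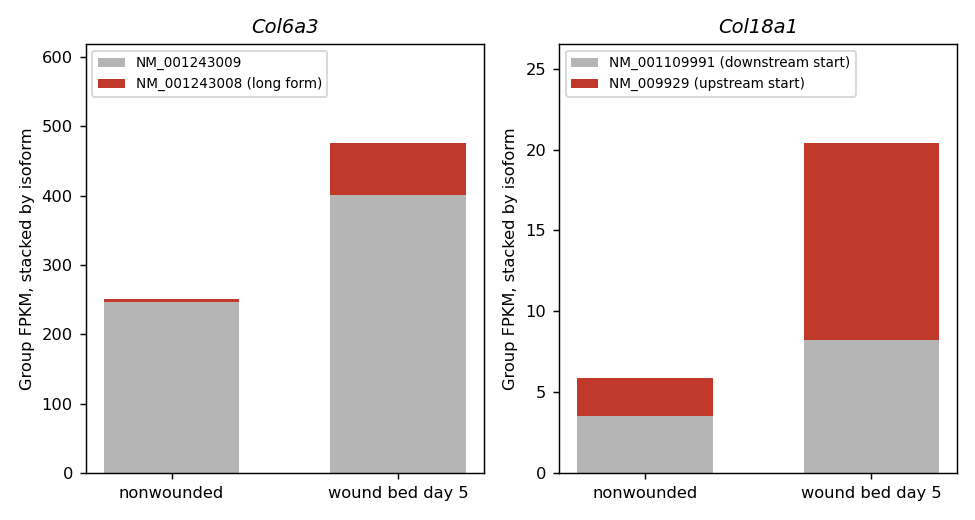
Group FPKM (vertical axis) stacked by isoform in nonwounded skin and the wound bed at day 5, for Col6a3 (left, red for the longer isoform) and Col18a1 (right, red for the isoform from the upstream start). The longer Col6a3 isoform makes up 1.48% of the nonwounded bar and 15.7% of the wound bed bar, and the upstream Col18a1 isoform 39.9% and 59.7%.

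The multiplexins, collagens with interrupted helices found in basement membrane zones, were called higher in 2 of 2 genes. Col15a1 rose 2.20-fold, from 21.2 to 46.6 FPKM. Col18a1, whose chain carries the fragment endostatin at its end, was called in both of its tested isoforms. NM_009929, which begins at the upstream start (position 77166548 of chromosome 10 in GENCODE M21), stood at 12.2 against 2.35 and rose by 2.38 on the log2 scale. NM_001109991 begins at the downstream start (position 77113705), where its own first exon of 747 bases holds 718 coding bases, and it stood at 8.22 against 3.53 and rose by 1.22. The share of the upstream isoform was 39.9% in nonwounded skin and 59.7% in the wound bed. The sum of both isoforms gave 1.80. Adjusted from the p-values of the authors, p was 0.000882 for Col15a1 and NM_009929 and 0.0231 for NM_001109991.

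Chains of the basement membrane network went both ways, with 1 of 4 tested genes higher and 1 lower. Col4a1 and Col4a2 code for the chains of the type IV collagen present in nearly all basement membranes, which join as 2 chains of the former and 1 of the latter. Col4a2 stood at 28.5 FPKM against 16.3 and rose 1.75-fold, while Col4a1 stood at 38.0 against 32.3 without a call (1.17-fold). The ratio of Col4a1 to Col4a2 was 1.98 in nonwounded skin and 1.33 in the wound bed, and the difference between their fold changes was not tested. Their annotated starts, shown above, are 21 bases apart on opposite strands in GENCODE M21. In the positions of the table Col4a1 ends at 11312826 and Col4a2 begins at 11312829, so the loci listed there do not overlap. Whether the authors counted reads by strand is not given in the sources used here.

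The remaining type IV genes were low. Col4a4 stood at 1.21 FPKM against 2.91 and fell by 1.27 on the log2 scale, the only collagen gene called lower. Its head-to-head neighbour and trimer partner Col4a3 was not tested, at 0.315 against 0.516. Both isoforms of Col4a5 were tested and not called, at 7.43 against 8.42 and 3.38 against 3.26, and Col4a6 was not tested, at 0.0945 against 0.212. Adjusted from the p-values of the authors, p was 0.0174 for Col4a2, 0.565 for Col4a1, 0.0115 for Col4a4 and 0.747 for the main isoform of Col4a5.

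Endothelial cells also make type IV, XV and XVIII collagen. Of 4 tested endothelial markers 0 were called, with the main isoform of Pecam1 at 1.52 FPKM against 0.729 and Cdh5 at 1.39 against 0.929, and the sum over the 5 markers was 26.2 in wounds against 89.2, mostly from Tek. None of the 5 was at 0. Markers of pericytes and smooth muscle summed to 18.8 against 62.7 over 6 genes, with 1 of 3 tested called lower. This was Kcnj8, at 14.9 against 58.3, which made up most of both sums. Des (1.18 against 3.03) and Myh11 (0.119 against 0.170 over its isoforms) also had their lower value in the wound bed. Rgs5 (1.45 against 0.709), Notch3 (0.681 against 0.230) and Cspg4 (0.489 against 0.329) had their higher value there. The part of endothelial cells, pericytes and smooth muscle in the collagen values was not tested.

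The short-chain network genes code for small collagens that form lattices around vessels and in the eye. Col8a1 rose by 4.91 on the log2 scale, to 16.8 FPKM from 0.559, and its partner Col8a2 stood at 2.30 against 1.32 without a call (log2 fold change 0.80). In nonwounded skin Col8a2 was thus the more abundant of the pair by FPKM, with 2.37 transcripts for each of Col8a1. In the wound bed Col8a1 was, by 7.28 to 1. With a pseudocount of 1 FPKM the rise of Col8a1 was 3.51 on the log2 scale. The adjusted p from that of the authors was 0.000882 for Col8a1 and 0.291 for Col8a2. The difference between the fold changes was not tested. Col10a1, the marker of hypertrophic cartilage, was not tested and was listed at 0 in the wound bed.

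Of the last chains, Col7a1, which codes for the anchoring fibrils that tie the epidermis to the dermis, stood at 2.13 FPKM against 0.192 and was called (log2 fold change 3.47, adjusted p = 0.00608 from that of the authors). Its log2 fold change was 1.39 with a pseudocount of 1 FPKM. Keratinocytes make this collagen as well, and of the 5 tested keratinocyte markers 2 were called higher. The sum over 6 such markers was 32.7 in wounds against 15.2, with Krt14 at 10.9 against 3.45, Trp63 at 0.493 against 1.14 over its isoforms, and none of the 6 at 0. The part of such cells in the value of Col7a1 was not tested. Col17a1, a transmembrane chain of keratinocytes, was not tested, and its main isoform stood at 0.687 against 0.380.

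Col23a1, another transmembrane chain, was tested without a call, at 1.67 against 0.754 (adjusted p = 0.144 from that of the authors). Col13a1 and Col25a1, the other transmembrane chains, and Col26a1 were not tested. Col28a1, a gene known from peripheral nerve, stood at 0.711 against 0.146 and was not called (2.28, adjusted p = 0.183 from that of the authors). Schwann cell markers summed to 1.76 against 5.05 over 5 genes, with 0 of 2 tested called. Sox10 was at 0 against 0.112, and only Cdh19, at 0.0591 against 0.0326, had its higher value in the wound bed. The part of such cells in the value of Col28a1 was not tested.

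The abundant chains held most of the summed level without a call. The 6 genes with 100 or more FPKM in nonwounded skin (Col6a1, Col6a2, Col5a1, Col5a2, Col14a1 and Col6a3) had fold changes of 1.20 to 1.84, and 0 were called, with p-values of the authors from 0.101 to 0.639. Of all 673 genes at that level, 5.79% were called higher and 15.3% lower, and their median log2 fold change was -0.22, against 0.65 for the 6. Of the 7 collagen genes between 5 and 100 FPKM in nonwounded skin, 4 rose and 0 fell, where 7.36% and 10.1% of the 6714 genes in that range did. The 6 abundant genes held 91.8% of the summed FPKM of the 27 tested genes in nonwounded skin and 85.2% in the wound bed, while the 11 called higher held 5.72% and 13.0%. The 11 were picked by a higher wound bed value, which favours a larger share there, so this shift is not read as a result. The sum over the 27 was 4890 in wounds against 3067 without a wound. Of this difference of 1823 FPKM, 1350 came from the 6 abundant genes without a call and 461 from the 11 with a call.

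**Figure D3:**
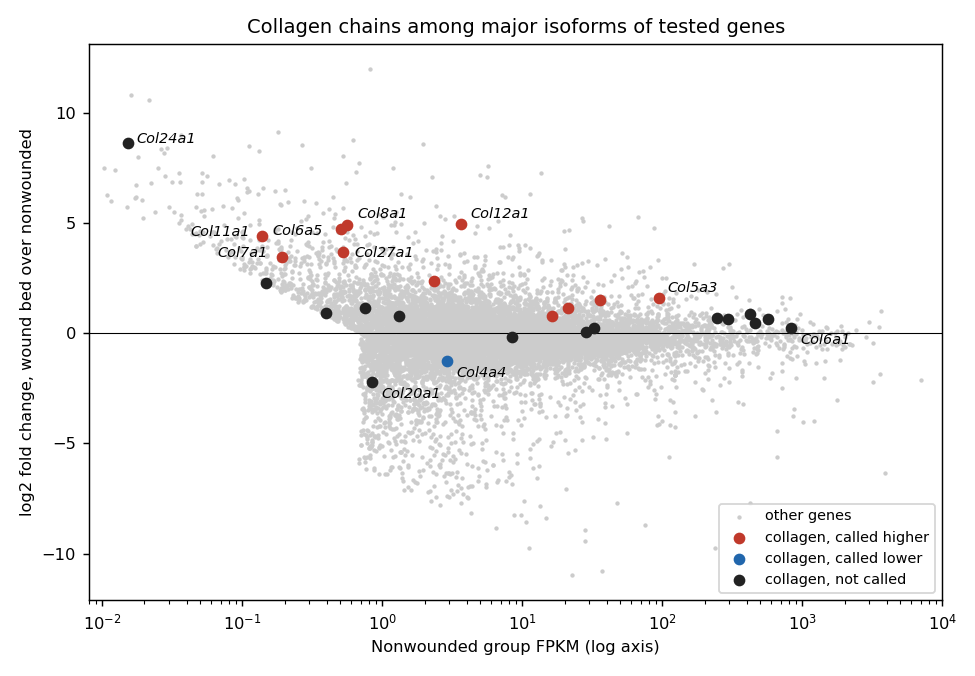
Log2 fold change (vertical axis, positive where the wound bed was higher) against nonwounded group FPKM (horizontal log axis) for 13061 tested genes with at least 0.01 FPKM in both groups, 1 point per gene, with collagen chains in red (called higher), blue (called lower) or black (not called). The 6 collagen genes at 100 FPKM or more lie at 0.26 to 0.88, and Col24a1, at 0.0151 FPKM, is the collagen gene farthest to the left, where genes low in both groups are missing because they were not tested.

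The genes that fold, cut, bind and break down collagen were counted from 5 lists, to be read beside the 7.01% of all tested genes called higher and the 8.67% called lower. In collagen folding and modification 4 of 18 tested genes were called higher and 0 lower. P4ha3, a subunit of the prolyl hydroxylase that stabilises the helix, stood at 50.7 FPKM against 1.24, and Plod2, which hydroxylates lysines for crosslinks, at 65.3 against 6.93. Serpinh1, the collagen chaperone HSP47, was not called at 1781 against 1506 (log2 fold change 0.24, adjusted p = 0.744 from that of the authors). The list had a median of 0.53 on the log2 scale, where all tested genes had -0.14.

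In propeptide cleavage and crosslinking 2 of 12 were higher and 2 lower (median 0.19). Adamts14, a protease that removes the amino propeptide, rose by 1.80 on the log2 scale, and Lox, the crosslinking enzyme lysyl oxidase, by 1.44. Pcolce2, an enhancer of carboxyl propeptide removal, stood at 39.2 FPKM against 344 and fell by 3.14, and Tll1, a protease of the same step, fell by 1.28. Their relatives Pcolce and Bmp1 were not called, at 853 against 1379 and 317 against 212.

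Of the fibril-binding proteoglycans and partners, 2 of 12 were higher and 0 lower (median -0.18). Fn1 and Sparc, under the status for too many fragments, and Kera, with too little signal to test, are not among the 12. Bgn, the gene of the proteoglycan biglycan, rose by 3.16 to 2695 FPKM, and Thbs2, of the matrix protein thrombospondin 2, by 2.37. Dcn, the gene of the related proteoglycan decorin, stood at 2537 against 2823 without a call. Among collagen receptors 1 of 9 was higher and 0 lower (median 0.74), a share near that of all tested genes, and this was Mrc2, which takes up collagen fragments (1.02). In collagen breakdown 5 of 14 were higher and 1 lower (median 1.41). This median includes Mmp13 (8.62 against 0.00479), Mmp10 (3.44 against 0.220) and Mmp8 (0.750 against 0.0115), none of them called. Their nonwounded values were low, so the choice of genes tested favours rises among such genes. The matrix protease gene Mmp3 rose by 3.01 and the protease inhibitor gene Timp1 by 5.22, while Timp3, of the same inhibitor family, fell by 1.40. Tgfb1, the gene of a growth factor that induces collagen synthesis, stood at 11.6 against 1.54 and rose by 2.92 (adjusted p = 0.00167 from that of the authors).

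**Figure D4:**
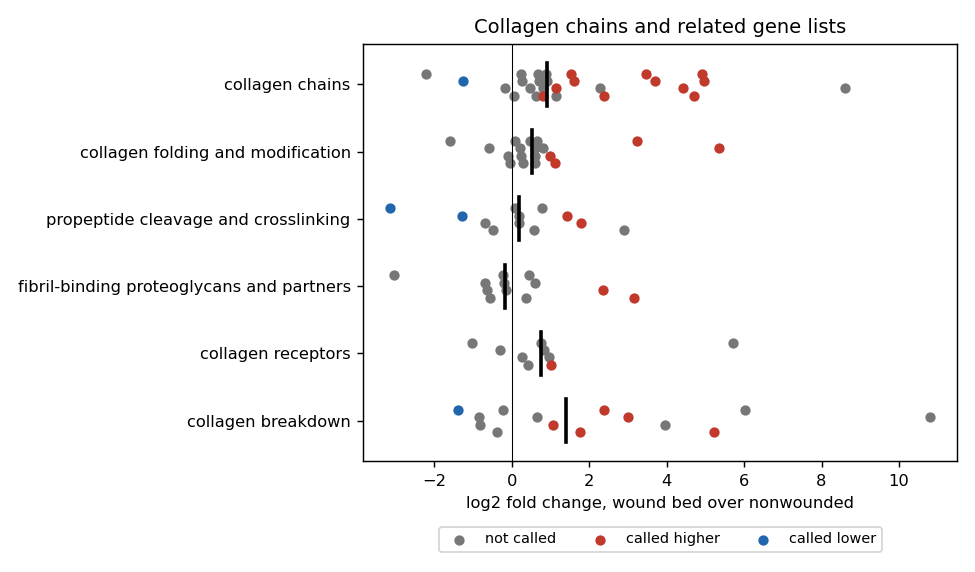
Change between the groups on the log2 scale (horizontal axis, positive where the wound bed was higher) of each tested collagen gene (top) and each tested gene of 5 related lists with both values above 0, 1 point per gene, with red for genes that rose, blue for genes that fell, grey for the others and a black bar at the median of the list. The medians of the 5 lists run from -0.18 for fibril-binding proteoglycans and partners to 1.41 for collagen breakdown.

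Markers of other cells were counted as well. All marker counts, here and above, are to be read beside the 7.01% of all tested genes called higher and the 8.67% called lower. Of 5 markers in common use for sorting adipocyte precursors 0 were higher and 1, Cd24a, was lower, with a sum of 2553 FPKM in wounds against 4018. Pdgfra stood at 81.2 against 78.8 and Itgb1 at 197 against 117. Ly6a stood at 1539 against 2149 and Cd34 at 476 against 739, and these 4 were not called. Leukocyte and macrophage markers rose in 5 of 7 tested genes and fell in 0, with a sum of 689 against 220 and none at 0. Mature adipocyte markers were lower in 1 of 5 tested cases, with a sum of 3.83 against 90.6, and skeletal muscle markers in 1 of 5, with a sum of 7.04 against 86.8. Of 5 dermal fibroblast markers 1, Mgp, was higher at 258 against 115, and 1, Dpp4, was lower at 66.7 against 211. The sum over the 5 was 1534 against 2268, mostly from Dpt, at 1181 against 1913 without a call. The part of these cells in the collagen values was not tested. In sorted bulk RNA, fewer cells of a type and less RNA per cell cannot be told apart.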

How the data were processed

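Per the labels' protocols, the sorted cells' RNA went into TruSeq mRNA libraries. Reads were processed with TopHat2 2.0.2 and Cuffdiff 2.0.2, and the build named is mm9, per the submitters' processing notes. The FPKM values and p-values are used as the authors deposited them. No value per sample was used, so no test across samples was run and sequencing depth is unknown. The start or end of 38 of the 44 collagen loci lay within 100 bases of the RefSeq gene on GRCm38.p6. The table's positions thus follow GRCm38, which is not the build named.

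P-values were adjusted by the Benjamini-Hochberg method over the 17775 tested isoforms, and the calls matched those marked significant by the authors in all 34535 rows. The adjustment was tested on simulated data. Fold changes were computed as wound bed over nonwounded FPKM without a pseudocount, and not for isoforms with the status for too many fragments. Each gene was represented by its most abundant tested isoform over the groups, and 53 of the 54 isoforms were matched to GENCODE M21 transcripts.

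All 44 chains are named. Called members, members with more than 1 usable isoform that differ, those without a usable value and those of at least 5 FPKM are given in full, and up to 2 called genes per direction from each related list, plus Tgfb1 and Serpinh1. The members and lists were chosen with earlier results of these data known. Other related genes and markers were named as examples after their values were seen. Alternatives were other thresholds, FPKM minimums, pseudocounts, centring and isoform sums. Python 3.11.15, numpy 2.4.6 and pandas 2.3.3 were used.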

Additional observations from a re-analysis of the deposited data

How the results depend on the processing

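The 13 collagen isoforms and 11 collagen genes called higher ranged from 10 to 13 and from 9 to 11 over 7 alternatives (adjusted p thresholds of 0.01 and 0.1, a minimum log2 change of 1, minimums of 1 and 5 FPKM in the higher group, adjustment over isoforms of at least 1 FPKM, and leaving out values of 0). The 1 isoform and 1 gene called lower, both Col4a4, became 0 at an adjusted p under 0.01 and with an FPKM of at least 5. All 27 tested genes kept the sign of their fold change with isoform sums, with pseudocounts of 0.1 and 1 FPKM and after centring on the median of -0.11. With a pseudocount of 1 FPKM, 9 of the 27 fold changes (on the linear scale) moved by more than 1.5 times, all of genes with less than 1 FPKM in nonwounded skin. No paired analysis was possible because the table holds 1 value per group, and for the same reason no sample could be left out. Sequencing depth is unknown, and 14 genes had too little signal to test.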

Other observations

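Proteins outside the family also carry a collagen-like stretch, and their genes were listed once part of the data was known. Cthrc1, which codes for a secreted protein of repair fibroblasts, was called higher in wounds at 936 FPKM against 93.2 (log2 fold change 3.33). Emilin1, an elastic fibre gene, stood at 38.3 against 10.4 and was called higher (1.87). C1qtnf3, of the C1q and TNF related proteins, was called higher at 99.7 against 18.9, while 5 other tested genes of that group, among them the main isoform of C1qtnf6 at 190 against 188, were not called and Adipoq was called lower. The surface collectin gene Colec12 was called higher at 63.4 against 25.4, and the ferritin receptor gene Scara5 was called lower at 132 against 342. Fcna, a ficolin gene of macrophages, was called lower at 1.86 against 25.9. The 3 chains of complement C1q, made mainly by macrophages, stood at 45.9 against 32.9 (C1qa), 77.5 against 50.8 (C1qb) and 47.6 against 31.4 (C1qc), and 0 of them were called.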
